A study of Bos taurus with 42 samples.

Results

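Fragments of the spliceosomal small nuclear RNAs (snRNAs) were described across bovine oocytes, embryos and cultured cells. They were the entries of the deposited small RNA table whose first listed annotation hit was an snRNA, and there were 122 of them among 12345 entries. An entry is a set of annotation hits shared by the reads counted to it, with at most 3 hits listed, and not a single sequence. Entries were named by their Rfam family and numbered within it by mean level, so that U1 entry 1 is the most abundant U1 entry. They named 96 Ensembl genes, by identifier only. Exactly 3 hits were listed for 77 entries, 2 hits for 14 and 1 hit for 31. In 22 entries a later hit belonged to another class of RNA, and in 19 of these to a tRNA-derived RNA.

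The spliceosome removes introns from pre-mRNA, and each of its subunits is built around an snRNA. U1 pairs with the 5′ splice site and U2 with the branch point, and the tri-snRNP of U4, U5 and U6 then joins, in which U4 holds U6 inactive until U6 forms the catalytic centre and U5 aligns the exons. U12, U4atac and U6atac take the matching roles in the minor spliceosome, which removes a rare class of introns. The genomes of mammals hold many near-identical copies and pseudogenes of these RNAs, so a short read from the common sequence fits many genes at once, and only reads from a divergent stretch name 1 gene. Reads of entries naming several genes, and of their near-identical copies, could therefore not be assigned to 1 gene.

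The study sequenced small RNA (below 200 nt, Ion Proton) in 42 libraries of 12 groups. Oocytes were either fertilised in vitro (IVF) with Holstein bull semen, or enucleated and given the nucleus of a serum-starved ear fibroblast (passages 4 to 5) of a Brahma-Spanish cross bull (nuclear transfer, NT, or cloning). Embryos of both kinds were grown on cumulus cells. Per the labels they were pooled in groups of 20, as 2-cell embryos on day 2, 8-cell embryos on day 3, morulae on day 6 and blastocysts on day 8. IVF gave 4, 3, 4 and 3 libraries at these stages, and NT gave 4, 4, 3 and 4. Cells derived from blastocysts in culture gave 4 IVF and 3 NT libraries, and oocytes and ear fibroblasts 3 each. The 10 libraries of fibroblasts and blastocyst-derived cells are called the cultured-cell libraries here. Nothing says that the pools came from separate oocyte collections. The p-values thus measure the spread between these libraries, embryo pools and cultures alike, pooled by the model over all 12 groups. NT donors are 1 animal and IVF sires another, and route and sire cannot be told apart.

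Listed reads per library ran from 25119 to 3081186. Of the 10 reads that IVF morula 3 had in snRNA entries, 5 belonged to U6, and fibroblast 1 had 89 snRNA reads in 5 entries. IVF morula 1 went against its label in its piRNA share: 0.143% of its listed reads, where the other IVF morulae had 14.7% to 80.5% and the cultured-cell libraries 0.0653% to 0.895%. All 12345 entries, and so all 122 snRNA entries, were found in NT 2-cell replicate 4, and entries absent from that library are not listed. A read in that library was thus a condition of being listed, so no entry could be at 0 in all NT 2-cell libraries. Fragments found in other groups, such as the cultured cells, but not in that library could not be listed. Leaving the library out of a fit does not bring them back. Shares and counts of calls that rest on IVF morula 1 and 3, on fibroblast 1 or on NT 2-cell library 4 are also given without them. Of 6 epithelium and trophectoderm miRNAs 3 were not found, among them miR-200a. The list summed to 100.1 to 164.2 normalised reads in NT blastocysts against 339.0 to 1258 in NT 8-cell embryos. That sum was mostly miR-205 (a mean of 653.3 of 758.6 in NT 8-cell embryos), which had 849.4 in oocytes. Of the rest, miR-200c had means of 70.6 and 39.6 and miR-141 of 34.8 and 11.7 in NT 8-cell embryos and NT blastocysts. In IVF blastocyst-derived cells the means of miR-200c and miR-141 were 1957 and 1326, against 92.3 and 30.1 in IVF blastocysts, with the list sum at 2.95 to 7880. Among the listed miRNAs miR-205 went the other way, at 18.1 against 97.9. The fibroblast and mesenchymal miRNAs summed to a mean of 57570 in these derived cells, mostly miR-21 (46670), and of 14910 in fibroblasts. In bulk RNA of pools, fewer cells holding an RNA and less of it per cell cannot be told apart.

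The 8 families were unequally represented. U1 had 19 entries and 70709 reads, U2 41 entries and 67635 reads, and U5 21 entries and 35616 reads. U6 had 25 entries and 8925 reads, and U4 10 entries and 5828 reads. The minor spliceosome was represented by 1 U12 entry (449 reads), 1 U4atac entry (211 reads) and 4 U6atac entries (657 reads). Together the snRNA entries held 190030 reads. A few entries carried most of each family: U1 entry 1 held 56.6% of the U1 reads, U4 entry 1 held 64.3% of the U4 reads and U2 entry 1 held 41.4% of the U2 reads. No entry was found in all 42 libraries, 27 were found in fewer than 10, and 117 passed the filter on low values.

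**Figure D1:**
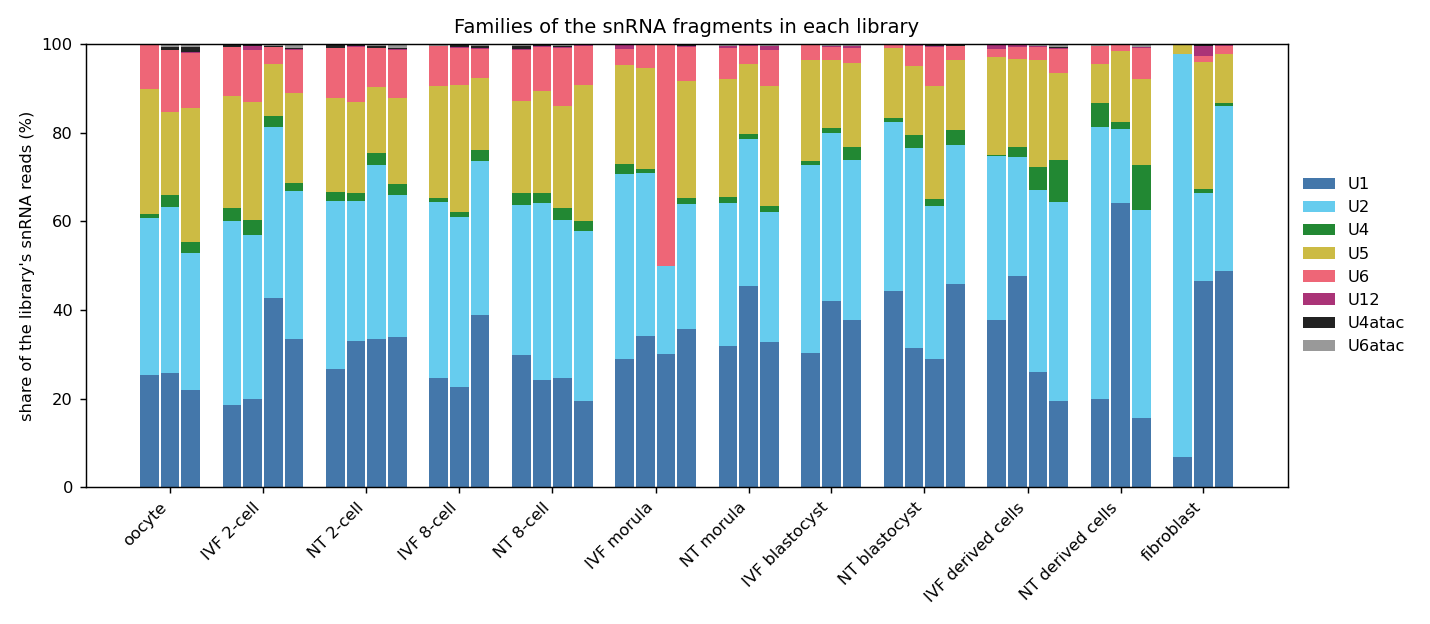
Share of each snRNA family (stacked bars, %) in the snRNA reads of each of the 42 libraries (1 bar a library, grouped by stage, IVF or NT, and cell type, where derived cells are blastocyst-derived cells). U1 and U2 made up most reads in nearly all libraries, and the U6 share was 8.92% to 13.1% in NT 8-cell embryos and 3.09% to 3.51% in IVF blastocysts; the IVF morula bar with 50% U6 rests on 10 reads and the fibroblast bar with 91.0% U2 on 89 reads.

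The family make-up moved less than the total. U2 made up 34.7% ± 3.27 (SD, n = 3) of the snRNA reads in oocytes, 37.5% ± 2.58 (n = 3) in IVF and 37.0% ± 2.76 (n = 4) in NT 8-cell embryos, and 38.9% ± 3.24 (n = 3) and 37.3% ± 6.03 (n = 4) in the blastocysts. U1 was at 24.3% ± 2.15 (n = 3) in oocytes, and at 36.6% ± 5.90 (n = 3) in IVF and 37.6% ± 8.71 (n = 4) in NT blastocysts. U6, the catalytic snRNA, went the other way, from 12.1% ± 2.08 (n = 3) in oocytes and 10.8% ± 1.82 (n = 4) in NT 8-cell embryos to 4.33% ± 3.48 (n = 4) in NT blastocysts. IVF showed the same order for U6, with 7.94% ± 1.20 (n = 3) at the 8-cell stage and 3.33% ± 0.216 (n = 3) in blastocysts. NT blastocyst 3 had 8.92% U6, as much as the lowest NT 8-cell library, so the NT ranges touched while the IVF ranges did not. Among only the entries with a read in the cultured-cell libraries, U1 was at 35.5% ± 3.14 (n = 3) in oocytes. It was at 37.9% ± 6.11 (n = 3) in IVF and 38.5% ± 7.94 (n = 4) in NT blastocysts, with overlapping ranges. In those entries U6 was at 9.49% ± 3.23 (n = 4) in NT 8-cell embryos and 3.98% ± 3.00 (n = 4) in NT blastocysts. All these shares are sums over members and were given no test.

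The share of snRNA fragments in the listed reads was highest in blastocysts. It was 0.180% ± 0.0556 (n = 3) in oocytes. At the 2-cell stage it was 0.342% ± 0.279 (n = 4) in IVF and 0.287% ± 0.0919 (n = 4) in NT embryos, and at the 8-cell stage 0.354% ± 0.297 (n = 3) and 0.200% ± 0.0285 (n = 4). Morulae had 0.309% ± 0.198 (IVF, n = 4) and 0.515% ± 0.312 (NT, n = 3), and IVF morulae without libraries 1 and 3 had 0.440% ± 0.101 (n = 2). In IVF the ranges of neighbouring stages overlapped from the oocyte to the morula. In NT the 3 morulae, at 0.282% to 0.869%, overlapped the 2-cell embryos but lay above all 8-cell embryos (0.164% to 0.231%) and all oocytes (0.140% to 0.243%).

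Blastocysts held 1.39% ± 0.345 (n = 3) in IVF and 2.53% ± 1.72 (n = 4) in NT. The 3 IVF blastocyst libraries had 1.60%, 1.58% and 0.994%, and all were above the 3 IVF 8-cell libraries, at 0.221%, 0.147% and 0.694%. The 4 NT blastocyst libraries had 1.72%, 3.12%, 0.652% and 4.60%, and the 4 NT 8-cell libraries 0.231%, 0.164%, 0.212% and 0.192%. All 4 NT blastocysts were thus above all 4 NT 8-cell libraries, by 12.6-fold in the means, and the IVF means differed by 3.93-fold, or 7.55-fold without IVF 8-cell library 4. The means of blastocyst-derived cells were lower, with 0.476% ± 0.370 (IVF, n = 4) and 0.471% ± 0.431 (NT, n = 3), but their highest libraries, at 1.03% and 0.966%, reached into the range of the blastocysts. Without these libraries, both numbered 3, the means were 0.291% ± 0.0131 (n = 3) and 0.224% ± 0.0763 (n = 2). Fibroblasts had 0.176% ± 0.146 (n = 3), or 0.257% ± 0.0521 (n = 2) without library 1. Shares of listed reads depend on the other classes: piRNAs took 84.0% ± 6.19 (n = 4) of the listed reads in NT 8-cell embryos and 20.8% ± 7.66 (n = 4) in NT blastocysts, and their part in the snRNA share was not tested. Other structural RNAs had higher shares in NT blastocysts too, by 27.9-fold for snoRNA entries, 7.97-fold for rRNA entries and 4.43-fold for misc_RNA entries.

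**Figure D2:**
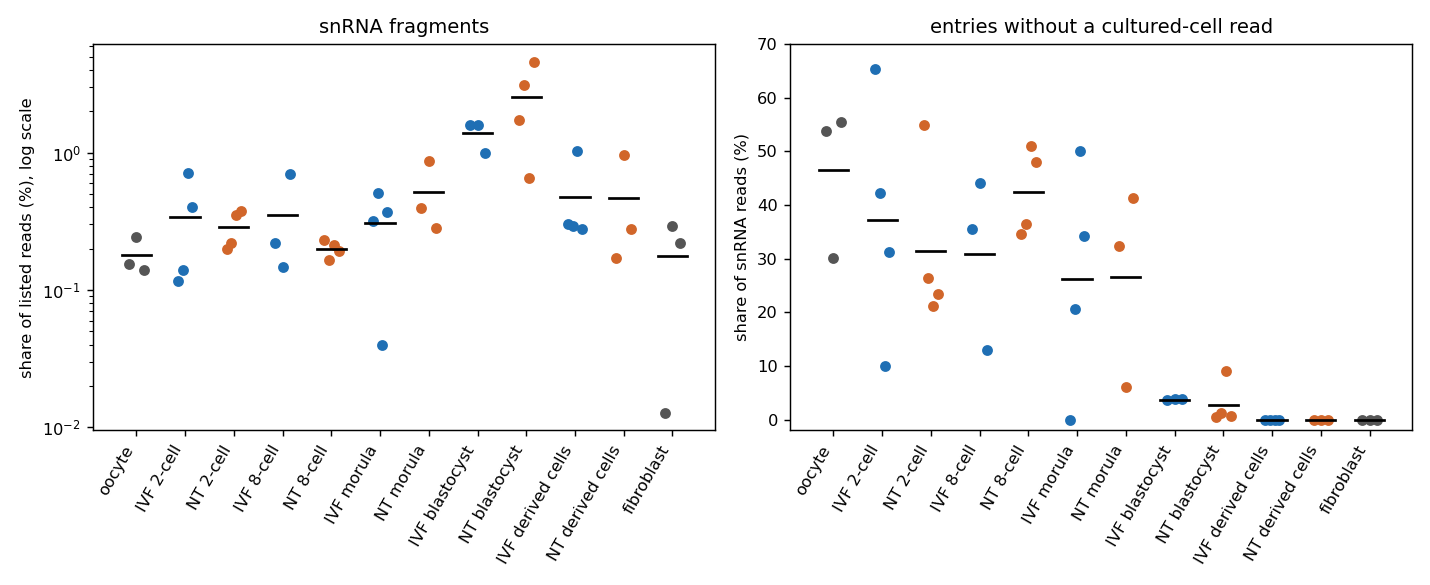
Left, snRNA fragments as a share of listed reads (%, log scale) in each library (points; blue IVF, orange NT, grey oocytes and fibroblasts) with the group mean (bar). The 7 blastocyst libraries sit between 0.652% and 4.60%. Right, share (%) of each library's snRNA reads in the 37 entries without a read in the 10 cultured-cell libraries; the 3 IVF blastocysts lie at 3.61% to 3.83%, the 4 NT 8-cell libraries at 34.5% to 51.0%, and the cultured-cell libraries at 0 by choice of the entries.

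The rise was not shared by all snRNA entries, and they were divided into 2 kinds by whether they had a cultured-cell read. The first kind, 37 entries, had no read in any of the 10 cultured-cell libraries, although these libraries held 73348 snRNA reads. Among all 12345 entries, 86.1% had no read in the cultured-cell libraries. Among piRNA entries it was 98.4% and among snoRNA entries 4.23%, and the snRNA entries lay between at 30.3%. Counting only entries with at least 50 reads in the other 32 libraries, 20 of 84 snRNA entries had none in the cultured cells, against 80.1% of all entries of that depth. This kind was noticed in the values, so its zeros in the cultured cells are a description. An opposite kind, with reads in cultured cells but none in NT 2-cell library 4, could not be listed.

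The entries of the first kind differed from the rest in what they named. Of 52 entries naming a single snRNA gene 34 belonged to it, and of 70 entries naming 2 or 3 snRNA genes only 3. All 22 entries with a hit to another class belonged to it, 19 of them with a tRNA-derived hit. With those set aside, 13 of 31 entries that named 1 snRNA gene and nothing else had no cultured-cell read. It held 20 of 41 U2 entries, 7 of 25 U6 entries, 4 of 21 U5 entries, 3 of 19 U1 entries and 2 of 10 U4 entries. Of 32 genes that were the only snRNA gene named in an entry, 14 had no read in the cultured cells in those entries. Such entries could also name another class. Among the 14, the U2 gene ENSBTAG00000044404 had 3522 reads in 5 entries, 4 of them with a tRNA-derived hit. The U2 gene ENSBTAG00000036618 had 1965 reads in 6 entries, 5 of them with a tRNA-derived hit. The U6 gene ENSBTAG00000042770 had 1407 reads in 2 entries, each with a tRNA-derived hit. The U1 gene ENSBTAG00000036959 had 892 reads in 2 entries without a tRNA-derived hit, of which U1 entry 15 has a protein-coding hit. Reads of entries with a hit to another class could not be assigned to the snRNA gene.

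The U5 family showed both kinds side by side at comparable depth. U5 binds the exon ends, and 9 of its genes were each named alone by at least 1 entry. ENSBTAG00000043367, named by U5 entry 1, had 5161 reads, none of them in cultured cells. ENSBTAG00000045168, named by U5 entry 7 and 3 smaller entries, had 2 of its 723 reads there. Those 2 reads were in U5 entry 7, which therefore belongs to the other kind although it fell to the blastocyst. The division thus did not follow the direction of change throughout. ENSBTAG00000042190, named by U5 entry 2, had 4971 of 9390 reads in cultured cells, and ENSBTAG00000042506, named by U5 entry 9, had 1178 of 2011. U5 entry 3, which names ENSBTAG00000043367 together with 2 other genes, was found in cultured cells, so the zeros concern the reads that fit this gene alone.

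U5 entry 1 and U5 entry 2 had opposite courses. Normalised reads (reads divided by the authors' size factors) of U5 entry 1 were 478.2, 372.4 and 393.8 in oocytes, 320.1, 311.0 and 262.0 in IVF 8-cell embryos, and 89.2, 92.6 and 91.8 in IVF blastocysts. In NT they were 443.7, 170.3, 714.3 and 291.7 at the 8-cell stage and 15.0, 36.6, 77.9 and 23.0 in blastocysts. The blastocysts of both routes were below every 8-cell library and above the cultured cells, where all 10 libraries were at 0. U5 entry 2 had 109.4, 48.4, 73.1 and 56.2 in NT 8-cell embryos and 252.6, 317.8, 82.4 and 265.0 in NT blastocysts, with NT blastocyst 3 inside the 8-cell range. By limma on all entries, U5 entry 1 had a log2 change of -3.28 ± 0.93 (SE) from the NT 8-cell stage to the blastocyst, with an adjusted p = 0.0032. U5 entry 2 had a difference of 1.52 that did not pass (adjusted p = 0.16). Both depended on the scaling: under median centring the values were -1.47 (adjusted p = 0.28) and 3.32 (adjusted p = 0.021), and under voom on the recovered reads -0.97 (adjusted p = 0.63) and 4.08 (adjusted p = 0.0040).

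**Figure D3:**
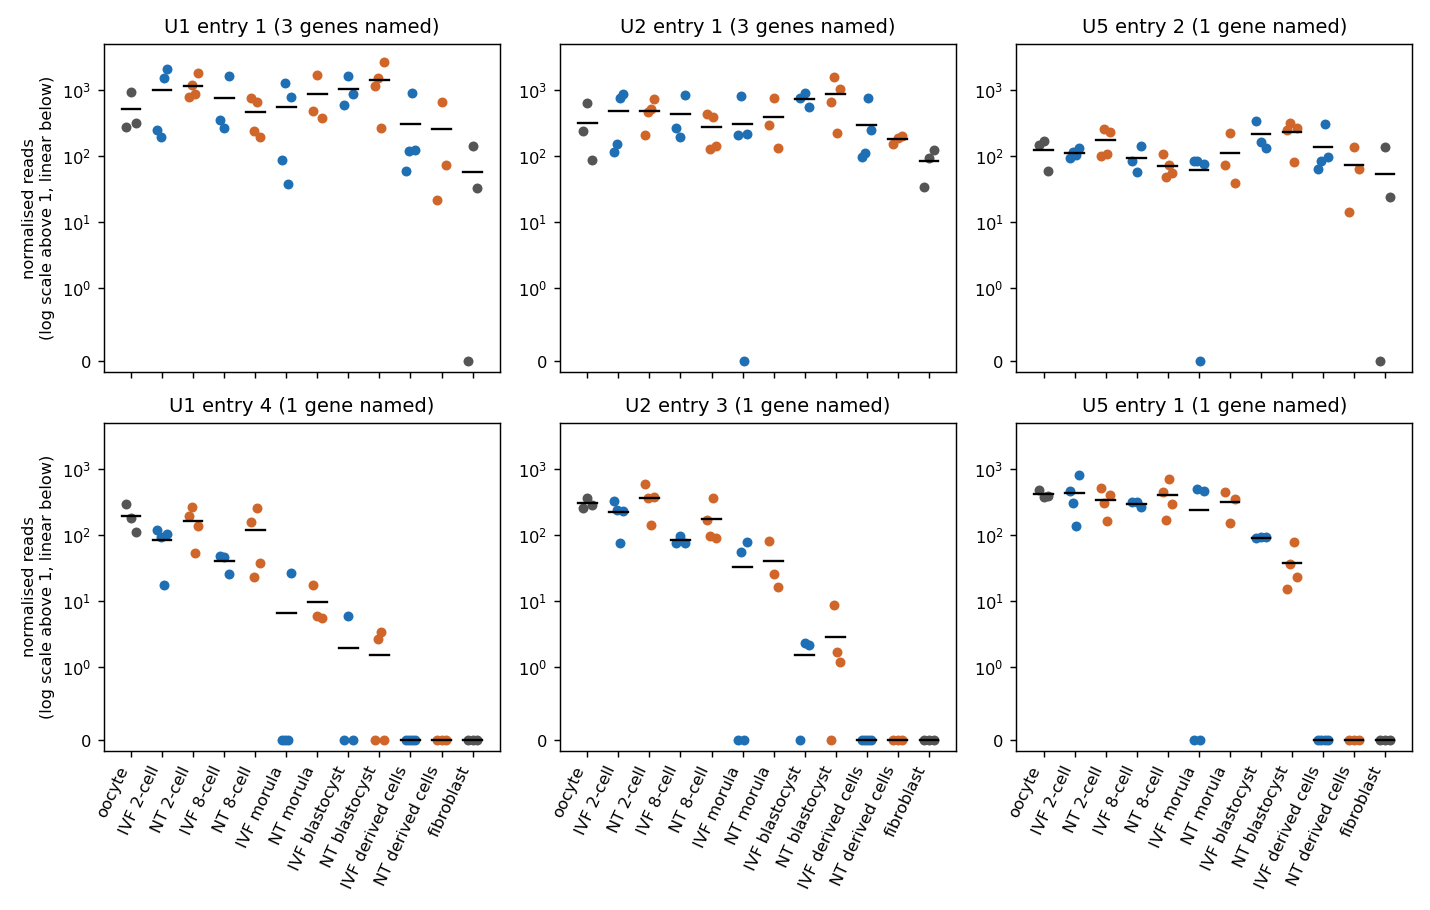
Normalised reads in each library (points; blue IVF, orange NT, grey oocytes and fibroblasts; bar, group mean; log scale above 1, linear below) of 3 entries found in cultured cells (top row) and 3 never found there (bottom row). U1 entry 4, U2 entry 3 and U5 entry 1 are at 0 in all 10 cultured-cell libraries, and U5 entry 1 is at 89.2 to 92.6 in IVF blastocysts.

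As a group, the 37 entries held 46.5% ± 14.2 (n = 3) of the snRNA reads in oocytes, 37.2% ± 23.0 (n = 4) and 31.5% ± 15.8 (n = 4) in IVF and NT 2-cell embryos, and 30.9% ± 16.1 (n = 3) and 42.5% ± 8.23 (n = 4) in the 8-cell embryos. Morulae had 26.2% ± 21.2 (IVF, n = 4) and 26.6% ± 18.4 (NT, n = 3). IVF morula 1 had 0 of its 2485 snRNA reads in them, and without IVF morula 1 and 3 the IVF value was 27.4% ± 9.60 (n = 2). In blastocysts they held 3.75% ± 0.124 (n = 3) in IVF and 2.82% ± 4.12 (n = 4) in NT, the latter 0.760% without NT blastocyst 3. As a share of listed reads they moved much less, from 0.0783% ± 0.00519 (n = 3) in oocytes and 0.0849% ± 0.0203 (n = 4) in NT 8-cell embryos to 0.0331% ± 0.0208 (n = 4) in NT blastocysts. The other 85 entries went from 0.115% ± 0.0244 (n = 4) to 2.49% ± 1.72 (n = 4) of listed reads over the same NT step, a 21.7-fold difference, and from 0.276% ± 0.285 (n = 3) to 1.34% ± 0.333 (n = 3) in IVF. piRNA shares ran alongside, at 89.9% ± 1.73 (n = 3) in oocytes, 27.5% ± 5.97 (n = 3) in IVF blastocysts and 0.168% ± 0.0696 (n = 4) in IVF blastocyst-derived cells, and their part was not tested.

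The step from the 8-cell embryo to the blastocyst held most of the changes that passed the test. In NT, 47 of 117 tested snRNA entries passed at an adjusted p under 0.05 (limma on the deposited log2 values, all groups in 1 model), with 26 higher and 21 lower in blastocysts. The 26 became 14 without NT blastocyst library 4, 17 without NT blastocyst library 2 and 35 without NT blastocyst library 3, and between 19 and 24 without any other single library of the 2 groups, while the 21 lower ran from 16 to 24. Over all 12039 tested entries 45.7% passed, 1.35% higher and 44.4% lower, so higher calls were 26 of 117 among snRNA entries while the total called was near the background. The 4 listed miRNAs of cumulus and granulosa cells, on which embryos were grown, summed to 1243 to 10140 normalised reads in NT 8-cell embryos and 791.8 to 2672 in NT blastocysts. That sum was mostly miR-21, which is also on the fibroblast list (a mean of 4946 of 5124 in NT 8-cell embryos). Of the rest, miR-202 had means of 160.2 and 20.0 and miR-132 of 16.2 and 0.741 in the 2 stages, and the part of these cells in the calls was not tested. The median change was 0.52 over the snRNA entries and -1.13 over all entries. In IVF, 10 passed, 1 higher and 9 lower, against 17.6% of all entries, 0.365% higher and 17.2% lower. The count of 10 fell to 3 without IVF 8-cell library 2, to 4 without IVF 8-cell library 3, blastocyst library 2 or blastocyst library 4, and to 6 without blastocyst library 3.

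Directions in this step depended on the scaling. The median change of all entries in the NT step was -1.13 on the deposited scale, 0.67 under median centring, -0.14 under quantile normalisation and -0.39 under voom. Relative to that median the snRNA median lay 1.66, 1.66, 1.92 and 2.97 higher, and in IVF 0.77, 0.77, 0.86 and 1.44 higher. The split in NT went from 26 higher and 21 lower to 70 and 3 under median centring, 61 and 4 under quantile normalisation, and 60 and 3 under voom. In IVF it went from 1 and 9 to 0 and 0, 15 and 4, and 12 and 3. The share of all entries called under these scalings is not given here. The splits are therefore not read against a background. All 26 NT entries called higher were also called higher under each of these 3 scalings, and none was with library weights. The 21 called lower kept their sign under quantile normalisation, voom and library weights. Under median centring U2 entry 18, U2 entry 22, U2 entry 24, U2 entry 26 and U6 entry 14 had small positive values of 0.06 to 0.32. Entries called lower on the deposited scale and under all 3 others were U1 entry 4, U2 entry 3 and U5 entry 7.

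Entries with higher levels in NT blastocysts mostly named several genes of U1, U2 or U5. Of the 66 tested entries naming several snRNA genes 21 were called higher and 2 lower. Of the 51 naming 1 snRNA gene, some beside another class, 5 were called higher and 19 lower. By family, 9 U1, 10 U2 and 7 U5 entries were higher, and no U4, U6, U12, U4atac or U6atac entry was. U5 entry 10, which names the genes ENSBTAG00000043085 and ENSBTAG00000043356, had 7.60, 0, 0 and 1.91 normalised reads in NT 8-cell embryos and 30.0, 68.8, 35.0 and 76.0 in NT blastocysts, so the groups did not overlap. Its change was 3.52 ± 0.78 (SE, limma adjusted p = 0.00017), the largest rise among the snRNA entries. It was followed by U2 entry 10 at 3.00 ± 0.75 (adjusted p = 0.00091), U2 entry 17 at 2.74 ± 0.72 (adjusted p = 0.0015) and U5 entry 12 at 2.58 ± 0.75 (adjusted p = 0.0036). In IVF the single rise was U2 entry 11. It had 0, 0 and 8.98 normalised reads in IVF 8-cell embryos and 61.3, 17.6 and 14.9 in IVF blastocysts, again without overlap, with a change of 2.78 ± 0.89 (adjusted p = 0.022). That call was lost without IVF 8-cell library 2 (adjusted p = 0.10), IVF 8-cell library 3 (0.11) or IVF blastocyst library 2 (0.14). U2 entry 11 also rose in NT, by 2.43 ± 0.77 (adjusted p = 0.0075).

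**Figure D4:**
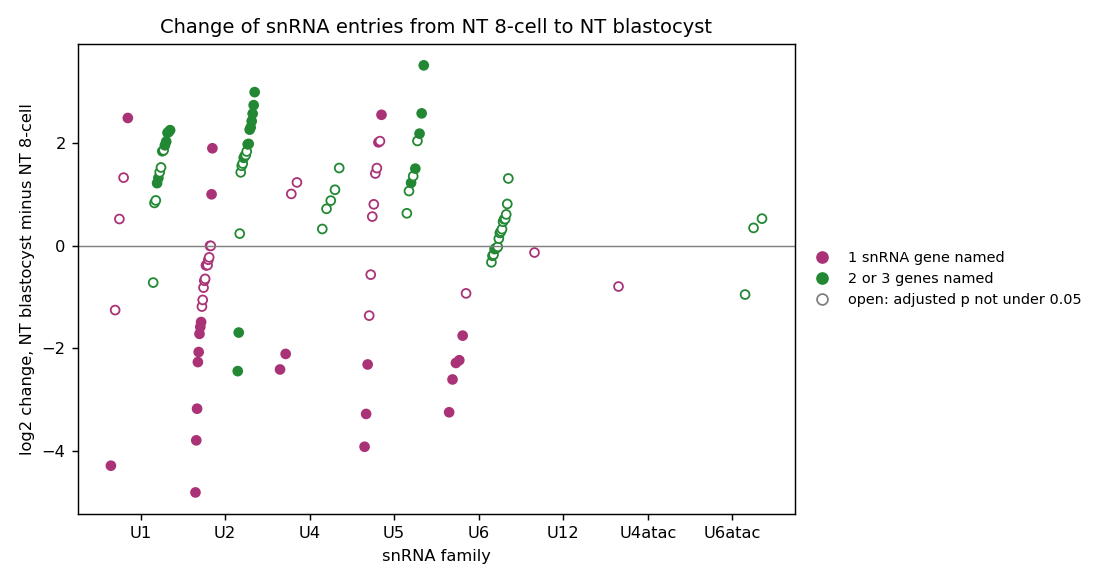
Change of each of the 117 tested snRNA entries from NT 8-cell to NT blastocyst (log2, deposited scale) by family; purple points name 1 gene and green ones 2 or 3, and filled points passed the test (adjusted p under 0.05). Filled points above 0 are 9 of U1, 10 of U2 and 7 of U5, and most of the filled points below 0 name 1 gene.

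Unlike U5 entry 1, the leading entries of U1, U2, U4 and U6 did not pass in the NT step on the deposited scale. U1 entry 1 had 756.7, 242.2, 658.3 and 194.5 normalised reads in NT 8-cell embryos and 1161, 1544, 267.4 and 2708 in NT blastocysts. U2 entry 1 had 436.1, 128.1, 397.4 and 141.1 at the 8-cell stage and 654.5, 1608, 227.9 and 1054 in blastocysts. NT blastocyst 3 lay inside the 8-cell range for both. The changes were 1.44 ± 1.10 for U1 entry 1 (adjusted p = 0.28) and 1.56 ± 1.04 for U2 entry 1 (adjusted p = 0.21), and both passed under median centring (adjusted p = 0.045 and 0.033) and voom (adjusted p = 0.0086 and 0.0057). U4 entry 1 differed by 0.88 ± 0.87 (adjusted p = 0.41) and U6 entry 1 by -0.02 ± 0.85. The U4 leader had 10.5 to 56.1 normalised reads in NT 8-cell embryos and 13.5 to 166.0 in NT blastocysts, and the U6 leader 26.7 to 118.5 and 11.7 to 152.8, so both overlapped.

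The minor spliceosome entries were low throughout. U12 entry 1, whose RNA takes the branch point role of U2, had group means between 2.24 ± 2.03 (NT blastocyst-derived cells, n = 3) and 8.71 ± 4.66 normalised reads (NT morulae, n = 3), and neighbouring groups overlapped. U4atac entry 1, the partner of U6atac, had 0, 28.1 and 34.3 normalised reads as its lowest, median and highest oocyte library. Its mean was 20.3 ± 8.92 (n = 4) in NT 2-cell embryos, 9.30 ± 10.8 (n = 4) in NT 8-cell embryos and 2.37 ± 2.18 (n = 4) in NT blastocysts. U6atac entry 1 had a mean of 17.4 ± 7.22 (n = 3) in oocytes, 13.6 ± 7.77 (n = 3) in IVF blastocysts and 0, 0 and 0.3725 normalised reads in the fibroblast libraries. From the NT 8-cell stage to the blastocyst, the changes did not pass: U12 entry 1 differed by -0.12 ± 0.70, U4atac entry 1 by -0.78 ± 0.71 and U6atac entry 1 by 0.53 ± 0.78. On the deposited scale U4atac entry 1 and U6atac entry 1 were lower in fibroblasts than in oocytes, where 40.4% of all entries were called lower. Their limma log2 changes were -2.04 (adjusted p = 0.037) and -2.87 (adjusted p = 0.0069). Both calls were lost with library weights, and that of U6atac entry 1 also under median centring and quantile normalisation. U4atac had 15 reads in all oocyte libraries and 11 in all fibroblast libraries, and the U6atac family 16 and 5.

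Falls to the blastocyst were largest in entries naming 1 snRNA gene. U2 entry 3, which names ENSBTAG00000036618 beside tRNA-derived hits, had 256.7, 362.6 and 284.8 normalised reads in oocytes. It had 76.6, 94.95 and 76.1 in IVF 8-cell embryos and 0, 2.34 and 2.19 in IVF blastocysts. In NT it had 165.6, 95.3, 358.4 and 90.6 at the 8-cell stage and 0, 8.56, 1.69 and 1.18 in blastocysts. No blastocyst library overlapped the 8-cell libraries of its route. The limma change was -4.21 ± 0.89 in IVF (adjusted p = 0.00093) and -4.81 ± 0.77 in NT (adjusted p = 1.2e-06). Morulae lay between, with a mean of 40.9 ± 34.6 (n = 3) in NT.

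U1 entry 4, without a cultured-cell read, and U5 entry 7, with 2 such reads, followed the same course. U1 entry 4 names the U1 gene ENSBTAG00000036959 alone. It had 156.5, 23.4, 256.0 and 37.2 normalised reads in NT 8-cell embryos and 0, 2.64, 3.39 and 0 in NT blastocysts, a change of -4.29 ± 0.73 (adjusted p = 2.9e-06). In IVF its change was -3.41 ± 0.84 (adjusted p = 0.0033). U5 entry 7 changed by -3.92 ± 0.68 in NT (adjusted p = 4.2e-06) and by -3.35 ± 0.78 in IVF (adjusted p = 0.0022). With library weights the NT and IVF calls of U5 entry 7 were lost (adjusted p = 0.35 and 0.43). U2 entry 2, with tRNA-derived and protein-coding hits beside the U2 gene ENSBTAG00000044404, changed by -3.79 ± 0.80 in NT (adjusted p = 9.2e-05) and by -3.05 ± 0.92 in IVF (adjusted p = 0.016). Its NT call was lost under median centring, quantile normalisation and voom (adjusted p = 0.087, 0.10 and 0.245). Its IVF call was lost under the same 3 scalings (0.419, 0.188 and 0.439) and without IVF 8-cell library 2 (0.073) or IVF blastocyst library 2 (0.068) or 4 (0.064). Among U6, all 5 called entries fell and each names 1 snRNA gene, with U6 entry 2 at -3.24 ± 0.75 (adjusted p = 0.00031). Both called U4 entries, U4 entry 3 at -2.11 ± 0.66 and U4 entry 4 at -2.41 ± 0.71, name ENSBTAG00000044452.

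The IVF and NT steps used separate libraries and can be set side by side. Of the 117 entries, 92 had the same sign in both, and the correlation across entries, which are not independent, was 0.88. All 10 entries called in IVF were called in the same direction in NT (100% of the IVF and 21.3% of the NT calls). The difference between the steps was tested itself as an interaction in limma, added after the values were seen: no snRNA entry passed, 4 had an unadjusted p under 0.05, and no entry of any class passed. For the step from the 2-cell to the 8-cell embryo no snRNA entry passed in either route, with 7 in IVF and 6 in NT at an unadjusted p under 0.05. Of all entries, 0.116% passed in IVF (0.0498% higher, 0.0665% lower) and 0.498% in NT (0.0332% higher, 0.465% lower). Without NT 2-cell library 4 the NT step had 95 higher and 73 lower calls over all entries in place of 4 and 56, the median over the snRNA entries was 0 in place of -0.50, and again no snRNA entry passed.

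**Figure D5:**
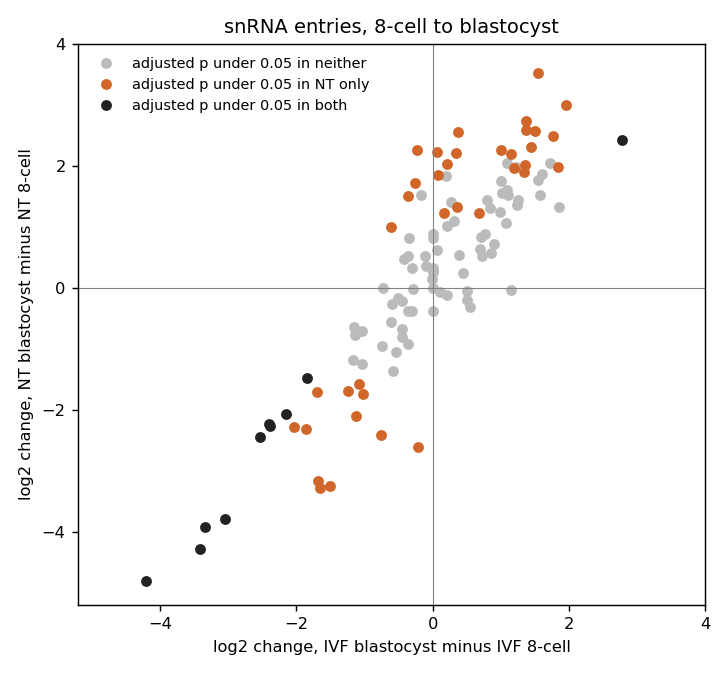
Change of each of the 117 tested entries from the 8-cell stage to the blastocyst in IVF (x axis, log2) and NT (y axis, log2). The 10 entries called in both routes are black, the 37 called in NT only orange and the others grey; U2 entry 11 is the single black point above 0.

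NT and IVF embryos were then compared within each stage, the comparison that the design sets between cloned and fertilised embryos. No snRNA entry passed at any of the 5 stages by limma, against 2.28% of all entries at the 2-cell stage (2.16% higher and 0.125% lower in NT), 0.00831% at the 8-cell stage, 0% in morulae, 0.00831% in blastocysts and 0% in blastocyst-derived cells. At an unadjusted p under 0.05 there were 8, 1, 10, 3 and 0 snRNA entries, and all but the 8-cell one were higher in NT. The median change over all entries was 0.34, 0.33, 0.31, 0 and 0 at the 5 stages. Over the snRNA entries it was 0.44, -0.10, 0.56, 0.09 and 0. The 10 in morulae became 4 without IVF morula 1 and 3, with the median change over the snRNA entries at 0 in place of 0.56. The 8 at the 2-cell stage became 5 without NT 2-cell library 4, with the snRNA median at 0.037 in place of 0.44, and the calls over all entries went from 260 higher and 15 lower to 181 and 74. The median 95% confidence interval of a change was 2.80 log2 units wide at the 2-cell stage and 3.02 at the 4 later stages, and differences inside such an interval were not detectable with these pools. Library weights gave 14 calls in morulae, 3 in blastocysts and 3 in blastocyst-derived cells. Leaving out IVF morula replicate 2 or 4 gave 4 and 5 calls in morulae, and the 2-cell stage gave 1 without IVF 2-cell library 2, NT 2-cell library 1 or NT 2-cell library 2 and 2 without NT 2-cell library 3. The share of all entries called with library weights or in these fits is not given here. The counts are therefore not read against a background.

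Among the leading entries in blastocysts, U1 entry 1 differed by 0.19 ± 1.19 and U2 entry 1 by -0.02 ± 1.13 between NT and IVF. U5 entry 1 had groups that did not overlap, at 89.2 to 92.6 normalised reads in the 3 IVF blastocysts and 15.0 to 77.9 in the 4 NT blastocysts. Its change of -1.37 ± 1.01 did not pass (adjusted p of 1), except with library weights (adjusted p = 0.013).

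Between oocytes and 2-cell embryos 1 snRNA entry passed the test. By limma, none passed between IVF 2-cell embryos and oocytes (3.03% of all entries passed, 0.789% higher and 2.24% lower, and 4 snRNA entries had an unadjusted p under 0.05). Between NT 2-cell embryos and oocytes 1 passed (2.43% of all entries, 1.85% higher and 0.581% lower). U2 entry 26, naming the U2 gene ENSBTAG00000044540, was listed at 0 in the 3 oocyte libraries and had 16.6, 26.7, 0 and 11.97 normalised reads in NT 2-cell embryos, with NT 2-cell library 3 at the oocyte level. These values stand for at most 10 reads, and the reads of NT 2-cell library 4 were a condition of being listed. Without that library the change was 2.22 (adjusted p = 0.033). Its change of 2.34 ± 0.62 (adjusted p = 0.023) was lost without oocyte library 1 or 3 (adjusted p = 0.054 and 0.0545) or NT 2-cell library 2 (0.065), and with voom it had an adjusted p of 0.99. The count itself was 0 without oocyte library 1 and 2 without NT 2-cell library 2 or 3.

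From the blastocyst to cells derived from it, the calls on the deposited scale were all falls. In IVF 5 of 117 snRNA entries passed (5.17% of all entries, 0.930% higher and 4.24% lower) and in NT 2 (2.87%, 0.988% higher and 1.88% lower). U5 entry 1 fell in both, with log2 changes of -5.22 ± 1.01 in IVF (adjusted p = 0.00026) and -3.85 ± 1.01 in NT (adjusted p = 0.014). It had 0 reads in all 7 derived-cell libraries. On the authors' size factors, a floor of 3 reads in each library makes this at least 143.9-fold lower in IVF and at least 45.8-fold lower in NT. U2 entry 8, U2 entry 2, U6 entry 2 and U1 entry 10 fell in IVF, with changes of -3.18, -2.81, -2.76 and -2.53 (adjusted p = 0.0089, 0.036, 0.025 and 0.047), and U1 entry 10 in NT, with -2.69 (adjusted p = 0.045). These counts depended on single libraries: the IVF count was 1 without blastocyst library 2 and 2 without any other single blastocyst library or without derived-cell library 1, 2 or 4. The NT count was 1 or 0 without any single library, and the NT call of U5 entry 1 was lost without NT blastocyst library 3 (adjusted p = 0.078) or any derived-cell library (0.066 to 0.071). Fits in other ways called more, not all of them lower: voom gave 68 in IVF and 54 in NT, all lower, fits of only the groups compared 2 higher and 14 lower in IVF and 34 lower in NT, and quantile normalisation 4 higher and 6 lower in IVF and 1 higher and 9 lower in NT. Leaving out IVF morula 1 and 3, which are in neither group compared, gave 10 in each route. They enter here through the pooled spread and through the filter, which sets the entries tested. The share of all entries called in these other fits is not given here, so their counts are not read against a background.

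Fibroblasts, the donor cell type of the NT embryos, had no snRNA entry above the oocyte and 28 of 117 below it (41.8% of all entries passed, 1.36% higher and 40.4% lower). They included 7 U2, 8 U6, 7 U5, 2 U1 and 2 U4 entries and 1 each of U4atac and U6atac. Fragments of fibroblasts without a read in NT 2-cell library 4 could not be listed. The lack of higher calls therefore concerns the listed entries only. U5 entry 1 was at 414.8 ± 55.9 normalised reads in oocytes (n = 3) and at 0 in the 3 fibroblast libraries. At a floor of 3 reads in each library this is at least 446.8-fold lower on the authors' size factors. Those were 0.199 to 0.284 in oocytes (408953 to 506363 listed reads) and 1.72 to 13.4 in fibroblasts (696686 to 2880540 listed reads). The bounds given here hold on those size factors only, and bounds per listed read were not computed. U2 entry 3 was at least 324.7-fold lower, U2 entry 2 at least 301.5-fold and U1 entry 4 at least 210.3-fold, with limma adjusted p = 3.2e-08, 1.3e-09, 5.3e-09 and 4.3e-09 for the 4 entries in this order. Of the entries found in cultured cells, U6 entry 1 fell by 4.39 ± 0.98 (adjusted p = 0.00012) and U1 entry 1 by 4.18 ± 1.27 (adjusted p = 0.0050) on the deposited scale. Both calls were lost under median centring, under quantile normalisation and with library weights. Entries found in cultured cells had 13 lower calls on the deposited scale and 11 under voom. They had 1 under median centring, 1 under quantile normalisation and 0 with library weights. U1 entry 1 had 271.8, 936.0 and 320.0 normalised reads in oocytes and 0, 141.6 and 32.4 in fibroblasts, where the 0 is fibroblast 1. Median centring and library weights each left 14 calls, 7 of them higher under median centring, quantile normalisation gave 15 higher and 10 lower, and leaving out fibroblast 1 left 22. The share of all entries called in those fits is not given here, so their counts are not read against a background. Of the 28, all kept a negative sign under median centring, voom and library weights, and 24 did under quantile normalisation. Of the fibroblast and mesenchymal miRNAs (6 of 6 listed), which summed to 1955 to 26340 normalised reads in the fibroblast libraries and 2587 to 7872 in oocytes, miR-21 made up most of the oocyte sum (4482 of a mean of 4704). The others were higher in the fibroblast mean than in the oocyte mean, at 2232 against 42.3 for miR-145, 335.2 against 13.4 for miR-199a, 110.4 against 0 for miR-214, 1390 against 135.8 for miR-221 and 293.3 against 30.3 for miR-222. The epithelium list summed to at most 1.12 in fibroblasts.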

How the data were processed

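Small RNA under 200 nt from 42 libraries was analysed as 1 deposited table. Its values are log2 values that the authors had size-factor normalised and variance-stabilised; the submitters' processing notes name Trim Galore, DESeq2 and the builds bosTau8 and UMD3.1 (versions and aligner: not given in the sources used here). Inverting the transformation, 100% of 171503 low values came out as whole reads (tolerance 0.01 reads), with the smallest value in a library taken as 2 reads. Size factors ran from 0.0787 to 13.4, and listed reads from 25119 to 3081186 (median 608572). These are reads of listed entries, not of whole libraries.

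Families were taken from Rfam accessions. The test kept entries with 3 or more libraries lying 1 log2 unit or more over the table's minimum (12039, of which 117 were snRNA). A single limma 3.58.1 model (R 4.3.3) over the 12 groups, without covariates, with an intensity trend and 30 residual degrees of freedom, gave two-sided tests with Benjamini-Hochberg adjustment over all entries at 0.05; it was tested on simulated data. Changes are on the deposited log2 scale, which understates low entries. Normalised reads and shares come from the recovered reads. Shares of single libraries carry counting error, and group values the SD between libraries.

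Members and lists were chosen with earlier results of these data known, and the 2 kinds of entry after their values were seen. Named were the leading entry of each family and up to 4 called entries in each direction per comparison; U2 entry 18, U2 entry 22, U2 entry 24, U5 entry 2, U5 entry 3, U5 entry 9, U6 entry 14, U4 entry 3 and U4 entry 4 were named after their values were seen. Alternatives were median centring, quantile normalisation, a stricter filter and none, only the groups compared, library weights (whose estimation did not reach its tolerance), voom on recovered reads, the replicate number as a block, leaving out libraries, and for shares another inverse and entries with snRNA hits only. scaRNAs could not be matched, as the table gives accessions only.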

Additional observations from a re-analysis of the deposited data

Results flagged for a closer look

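Of 41 measures in groups of 4 libraries, 7 held a library far from the others of its group (Dixon's criterion, which chance alone meets in about 1 in 20 groups). In NT 2-cell embryos library 1 had 26.61% U1 among its snRNA reads, where the others had 32.94% to 33.92%, and the same library had 54.95% in the entries without a cultured-cell read, where the others had 21.2% to 26.38%. In IVF morulae library 3 had 0% U5 (others 22.33% to 26.42%) and 50% U6 (others 3.702% to 7.543%), which is the library with 10 snRNA reads. In NT blastocysts library 3 had 25.41% U5 (others 15.58% to 15.94%), and it was also the one with 8.988% in the entries without a cultured-cell read (others 0.4759% to 1.175%). In IVF blastocyst-derived cells library 3 had an snRNA share of 1.03% of listed reads (others 0.2765% to 0.3022%).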

How the results depend on the processing

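Counts of called snRNA entries moved with the processing as follows. The share of all entries called under each alternative is not given here, so the counts are not read against a background. NT against IVF had 0 calls on the deposited scale, and library weights gave 14 in morulae, 3 in blastocysts and 3 in blastocyst-derived cells; leaving out single libraries gave 0 to 2 at the 2-cell stage and 0 to 5 in morulae. IVF 2-cell embryos against oocytes went from 0 to 2 under median centring. NT 2-cell embryos against oocytes went from 1 to 0 under quantile normalisation, in a fit of only the groups compared, with library weights and with voom, and ranged from 0 to 2 without single libraries. The IVF step to the blastocyst went from 10 to 0 under median centring, 19 under quantile normalisation and 27 with only the groups compared, and 3 to 11 without single libraries. The NT step went from 47 to 73 under median centring and 19 with library weights. IVF blastocyst-derived cells against blastocysts went from 5 to 2 (median centring), 10 (quantile normalisation, 4 of them higher), 16 (only the groups compared), 68 (voom) and 10 (without IVF morula libraries 1 and 3), with 1 to 7 without single libraries. In NT it went from 2 to 1, 10, 34, 54 and 10 under the same settings and 8 with library weights, with 0 to 1 without single libraries. Fibroblasts against oocytes went from 28 to 14 under median centring and 14 with library weights. The snRNA share of NT 8-cell embryos was 0.155% from entries with snRNA hits only, against 0.200%. The cause of these changes was not tested, other than that fits of only the groups compared test fewer entries.

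Replicate numbers did not pair the samples: in no comparison did all same-numbered libraries correlate above 0.1. With the number as a replicate block, IVF blastocyst-derived cells against blastocysts had 3 calls in place of 5, fibroblasts against oocytes 29 in place of 28, and the other counts were the same.

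For NT against IVF in blastocysts, which did not pass, U2 entry 1 turned from -0.02 to 0.246 under quantile normalisation, 0.041 with library weights, 0.377 with voom and 0.098 with the replicate block, and ranged from -0.41 to 0.52 without single libraries. U1 entry 1 went from 0.19 to between -0.26 and 0.85 without single libraries. Rare entries of a few reads were below what this depth can compare.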
